A study of Mus musculus with 6 samples.

Results

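The genes examined are 10 genes of melanin synthesis and of the melanosome, the pigment organelle, out of 22692 gene symbols in each table: Tyr, Tyrp1, Dct, Pmel, Slc45a2, Oca2, Mlana, Mitf, Gpr143 and Slc24a5. They were taken by symbol as a functional family, with earlier results of these data known, and all 10 were found. RNA of whole eyes from C57BL/6J mice, a pigmented inbred strain, was sequenced 9.0 h and 1.5 h after light onset, with 3 libraries at each time. The RNA of 5 females, 4 weeks old, was pooled for each library, and no treatment or allele is named beyond the strain. Nothing in the labels shows that the 3 pools of a time drew on separate mice. The p-values therefore rest on variation among libraries, some of which may be technical.

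Melanin is made from tyrosine inside melanosomes. Their amyloid fibrils are laid down first, the copper and zinc enzymes of the tyrosinase family arrive later, and ion and solute transporters set the conditions inside the organelle. Transcription of most of these genes is driven by MITF, a basic helix-loop-helix leucine zipper factor. In the eye, melanin is held by the retinal pigment epithelium and the pigmented epithelia of iris and ciliary body, which come from the neural tube, and by melanocytes of choroid and iris stroma, which come from the neural crest. A value from a whole eye mixes these sources, and fewer pigment cells and less RNA per pigment cell cannot be told apart.

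All 10 genes were lower on average 9.0 h after light onset than at 1.5 h, by small amounts, and none passed the test. Their log2 fold changes, 9.0 h minus 1.5 h, lay between −0.52 for Tyrp1 and −0.10 for Pmel, with a median of −0.34, against a median of −0.003 over all 13490 tested genes. With limma and Benjamini-Hochberg adjustment, 0 of the 10 were called at an adjusted p of 0.05, where 0.222% of all tested genes were called in either direction. At an unadjusted p of 0.05, 4 of the 10 passed (Tyrp1, Oca2, Slc45a2 and Gpr143, all lower), against 4.58% of tested genes that passed and were lower and 11.1% that passed in either direction. All 10 had a negative fold change, as did 50.6% of all tested genes. These genes share cells, so they are not 10 separate observations.

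**Figure D1:**
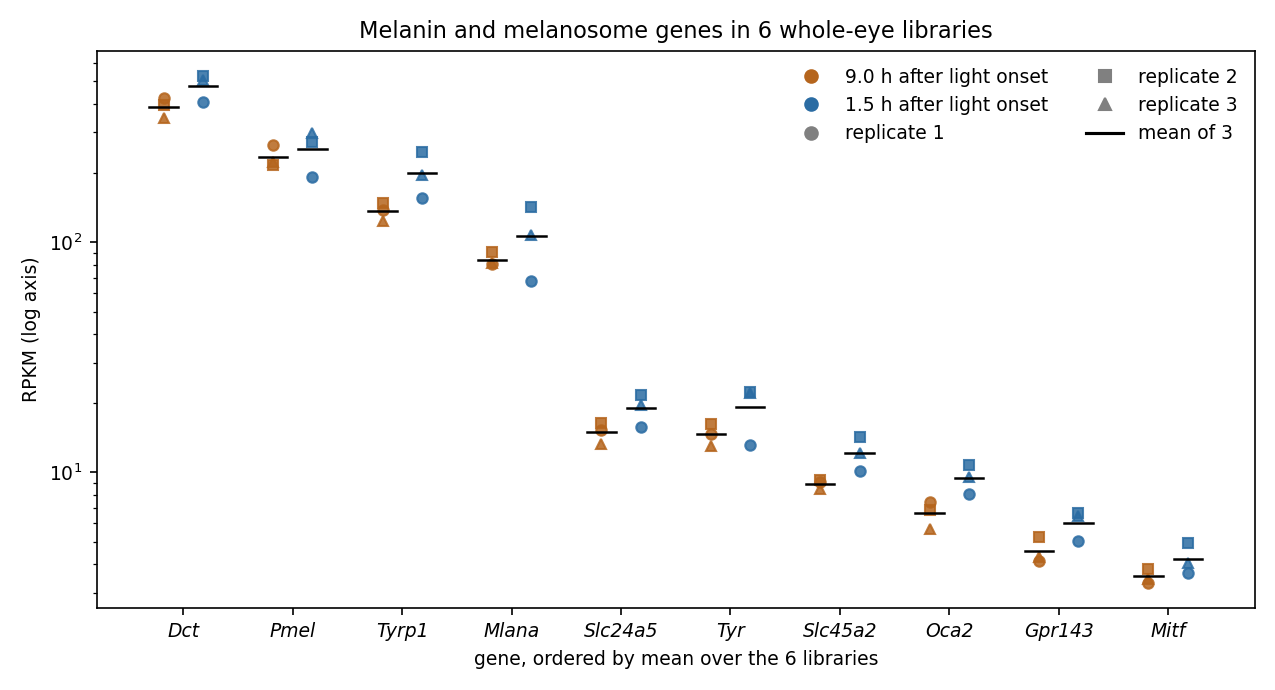
RPKM on a log axis of each of the 10 genes in the 3 libraries at 9.0 h (brown, left of each pair) and the 3 at 1.5 h (blue); symbols give the replicate and black bars the mean of 3. Replicates 2 and 3 at 1.5 h stand above the 9.0 h points for every gene, while replicate 1 at 1.5 h lies among or close to them.

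Libraries differed in depth and makeup. Total reads, worked out from the steps of low values, were between 24030000 and 31750000 at 9.0 h and between 12640000 and 28950000 at 1.5 h, with 1.5 h replicates 2 and 3 the shallowest. Even there the least abundant of the 10 genes, Mitf, had at least 52.5 reads per kb of transcript. In 1.5 h replicate 1 the lens crystallin Cryaa stood at 17270 RPKM, against 27040 to 45160 in the other 5 libraries. In 1.5 h replicate 3 the Y-linked genes Ddx3y and Eif2s3y had 0.479 and 0.781 RPKM in a pool labelled female, and were listed at 0 in the other 5. The same library had 366.9 RPKM of the globin Beta-s, against 41.87 to 117.7 RPKM in the others. It also had 7.821 RPKM of Alas2, a heme enzyme of red cells, against 1.546 to 2.852 RPKM. The female marker Xist stood at 19.74 RPKM there, against 39.26 and 27.6 RPKM in 1.5 h replicates 1 and 2. At 9.0 h Xist had 13.35 to 15.49 RPKM. Markers of photoreceptors (Sag, at least 780.2 RPKM), corneal epithelium (Krt12, at least 1338 RPKM) and pigment epithelium (Rpe65, at least 45.1 RPKM) were present in every library labelled whole eye.

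In abundance the 10 genes formed an upper and a lower group. Dct, Pmel, Tyrp1 and Mlana together held between 93.7% and 94.4% of the summed RPKM of the 10, and each had a higher mean than at least 96.9% of tested genes. At 9.0 h the order of means ran Dct, Pmel, Tyrp1, Mlana, Slc24a5, Tyr, Slc45a2, Oca2, Gpr143, Mitf, and only Slc24a5 and Tyr overlapped with their neighbour in it. At 1.5 h Tyr and Slc24a5 changed places and still overlapped, and Pmel with Tyrp1 and Slc45a2 with Oca2 overlapped as well. Tyr, whose product carries out the first step of melanin synthesis, thus had less RNA per length than its relatives Tyrp1 and Dct in every library.

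Mitf, the transcription factor at the head of the pathway, was the least abundant. It had 3.32, 3.81 and 3.46 RPKM in the libraries at 9.0 h, against 3.66, 4.94 and 4.05 RPKM at 1.5 h. The times overlapped, since 9.0 h replicate 2 lay above 1.5 h replicate 1. The log2 fold change was −0.24 ± 0.16 SE (n = 3 each; limma adjusted p = 0.643).

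The windows around the annotated start sites of the tyrosinase family are shown because the letters bound by MITF, the core CATGTG of the so-called M-box, stand in all 3 of them. They run from 250 bases before to 50 bases after the start, are taken from RefSeq on GRCm38.p6, a later build than the mm9 of the files, and are written 5′ to 3′ on the gene's strand with CATGTG, on either strand (reverse CACATG), in capitals. Tyr is at chr7:87493463-87493762 on the minus strand, Tyrp1 at chr4:80833963-80834262 on the plus strand and Dct at chr14:118052197-118052496 on the minus strand.

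Tyr: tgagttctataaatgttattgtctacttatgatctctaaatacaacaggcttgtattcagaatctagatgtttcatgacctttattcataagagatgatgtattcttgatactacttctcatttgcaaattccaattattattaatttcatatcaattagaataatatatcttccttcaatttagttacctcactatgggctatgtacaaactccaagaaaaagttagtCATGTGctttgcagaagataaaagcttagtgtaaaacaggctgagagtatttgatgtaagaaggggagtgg

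Tyrp1: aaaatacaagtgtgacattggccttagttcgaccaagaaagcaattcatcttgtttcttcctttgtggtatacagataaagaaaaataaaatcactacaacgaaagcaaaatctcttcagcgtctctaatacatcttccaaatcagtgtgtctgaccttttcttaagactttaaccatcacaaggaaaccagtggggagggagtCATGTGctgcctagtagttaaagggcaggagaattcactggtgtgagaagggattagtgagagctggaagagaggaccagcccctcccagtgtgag

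Dct: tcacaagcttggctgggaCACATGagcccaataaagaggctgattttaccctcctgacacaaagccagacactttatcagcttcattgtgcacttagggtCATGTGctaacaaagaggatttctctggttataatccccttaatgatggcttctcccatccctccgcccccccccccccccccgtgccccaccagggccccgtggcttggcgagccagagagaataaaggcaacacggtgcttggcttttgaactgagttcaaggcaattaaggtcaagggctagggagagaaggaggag

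The capitals begin 21 bases before the start in Tyr, 46 before in Tyrp1, and 150 and, on the reverse strand, 232 before in Dct. Of the 10 genes, 6 had a window (Tyr, Tyrp1, Dct, Oca2, Slc24a5 and 3 windows of Mitf). The core was found in 5 of these 6, including Oca2 at 186 and Slc24a5 at 13 bases before the start, both on the reverse strand, and in none of the 3 Mitf windows. Counted by window, it was present in 5 of the 8 windows of these genes, against 14.2% of all 32851 windows of this length. Around it Tyr and Tyrp1 share an identical run of 11 bases, agtCATGTGct, the M-box in its longer form. On either strand this run stood in 7 of the 32851 windows, those of Tyr and Tyrp1 themselves, which gave it, and 5 windows of other genes. The E-box CACGTG, a palindrome bound by CLOCK and ARNTL among others, was in 0 of the 8 windows of these genes and in 7.15% of all windows. A match describes letters only, and binding was not measured here. Pmel, Slc45a2, Mlana and Gpr143 had no entry.

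Among the enzymes, Tyrp1, a tyrosinase relative needed for brown-to-black eumelanin, had the largest difference of the 10. Its libraries gave 138.7, 147.5 and 123.8 RPKM at 9.0 h, against 156.0, 247.4 and 195.5 RPKM at 1.5 h. Every library at 9.0 h was below every one at 1.5 h. The means were 136.7 ± 12.0 and 199.6 ± 45.8 RPKM (SD, n = 3 each), a log2 fold change of −0.52 ± 0.18 SE with limma adjusted p = 0.331. A processed pseudogene, Gm45386, matches 215 bases of its transcript at 95.8% identity.

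Tyr, the tyrosinase itself and the gene lost in classical albinism, had 14.7, 16.2 and 13.1 RPKM at 9.0 h, against 13.2, 22.3 and 22.1 RPKM at 1.5 h. The first 1.5 h library lay inside the range of the 9.0 h libraries, and the other 2 lay far above it. The log2 fold change was −0.35 ± 0.20 SE (limma adjusted p = 0.570).

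Dct, dopachrome tautomerase, which steers the pathway toward carboxylated eumelanin, was the most abundant. It had 423.8, 396.8 and 345.3 RPKM at 9.0 h, against 406.2, 527.5 and 505.5 RPKM at 1.5 h. Here too 1.5 h replicate 1 fell among the 9.0 h values, and the log2 fold change was −0.30 ± 0.17 SE (limma adjusted p = 0.557). Since Dct differed less than Tyrp1, the log2 ratio of Tyrp1 to Dct was −1.61, −1.43 and −1.48 at 9.0 h, against −1.38, −1.09 and −1.37 at 1.5 h. This pair was picked after its values were seen. Of the 45 pairs of genes, 8 (17.8%) had log2 ratios that did not overlap between the times, beside 18.2% of all tested genes for single levels.

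Of the proteins that build the organelle, Pmel, which forms the amyloid fibrils on which melanin is deposited, had the smallest difference. It had 263.4, 217.0 and 222.5 RPKM at 9.0 h, against 192.7, 274.1 and 298.3 RPKM at 1.5 h, where 1.5 h replicate 1 was the lowest of all 6. The log2 fold change was −0.10 ± 0.19 SE (limma adjusted p = 0.883), and it was 0.02 when 1.5 h replicate 3 was left out, the only change of sign among the 10 genes in any setting tried. Pmel was also the gene whose 6 values followed the other 9 least closely, with a root mean square difference of 0.199 on the log2 scale, against 0.047 for Slc24a5, the closest. Exons of Dgka and Cdk2 overlap those of Pmel by up to 105 bases in the GENCODE annotation.

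Mlana (MART-1), a small melanosomal membrane protein that interacts with Pmel, varied most between libraries. It had 80.5, 90.8 and 81.1 RPKM at 9.0 h, against 68.2, 142.8 and 108.0 RPKM at 1.5 h. The 1.5 h libraries thus span more than the whole range at 9.0 h, on both sides. The log2 fold change was −0.28 ± 0.23 SE (limma adjusted p = 0.723), and −0.03 without 1.5 h replicate 2.

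The 3 transporters were alike in direction. Oca2, a melanosomal membrane protein needed for a chloride current there and mutated in a form of albinism, had 7.41, 6.84 and 5.68 RPKM at 9.0 h, against 8.06, 10.8 and 9.53 RPKM at 1.5 h. Slc45a2, a transporter that affects melanosome acidity, had 9.05, 9.24 and 8.45 RPKM at 9.0 h, against 10.2, 14.3 and 12.2 RPKM at 1.5 h. Neither gene overlapped between the times, and their log2 fold changes were −0.50 ± 0.17 SE and −0.44 ± 0.16 SE, with limma adjusted p = 0.292 and 0.334. Slc24a5, a potassium-dependent sodium and calcium exchanger known for its effect on human skin colour, had 15.3, 16.4 and 13.3 RPKM at 9.0 h, against 15.7, 21.6 and 19.6 RPKM at 1.5 h. Its times overlapped by 1 library, and the log2 fold change was −0.33 ± 0.16 SE (limma adjusted p = 0.484). Exons of Slc24a5 and of Myef2, on the opposite strand, overlap by up to 714 bases in the annotation, and with no strand setting known some of these reads can be from Myef2, at 3.67 to 5.11 RPKM.

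Gpr143, the G protein-coupled receptor of ocular albinism that sits in the melanosome membrane and affects melanosome size, had 4.14, 5.25 and 4.30 RPKM at 9.0 h, against 5.03, 6.65 and 6.45 RPKM at 1.5 h. A single pair of libraries, 9.0 h replicate 2 and 1.5 h replicate 1, crossed. The log2 fold change was −0.39 ± 0.17 SE (limma adjusted p = 0.419). In all, 3 of the 10 genes (Tyrp1, Oca2 and Slc45a2) were lower at 9.0 h with no overlap, against 8.41% of all tested genes.

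**Figure D2:**
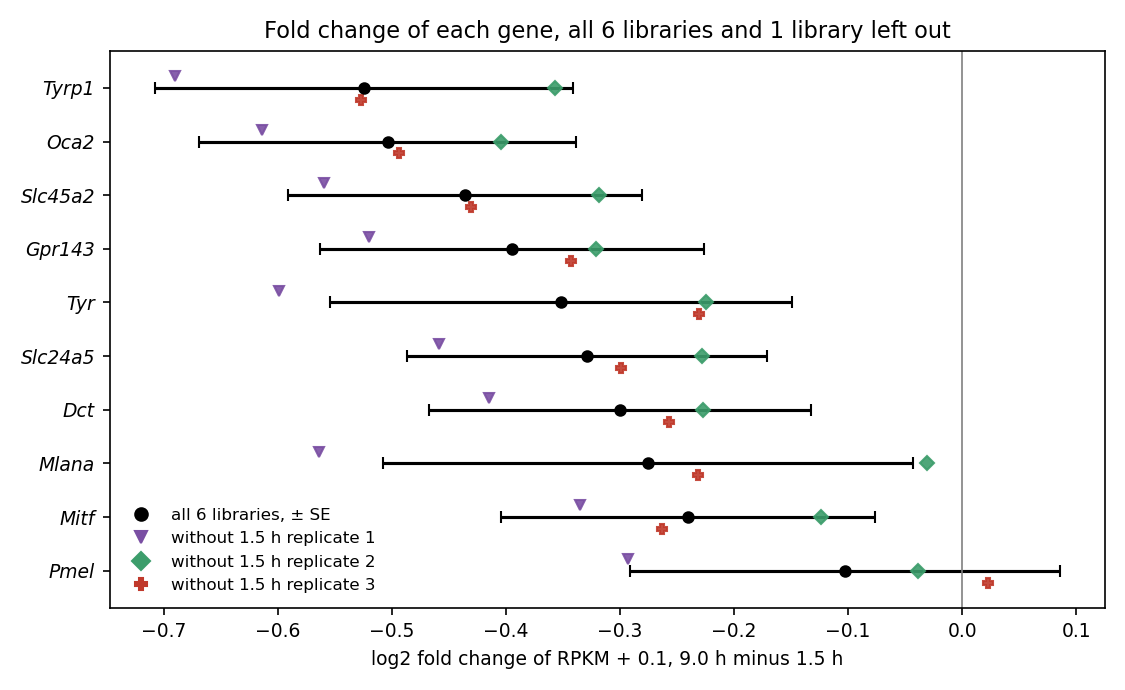
Log2 fold change of RPKM + 0.1 (9.0 h minus 1.5 h) of each gene with all 6 libraries (black, ± SE) and without each 1.5 h library in turn (coloured symbols). Values without 1.5 h replicate 1 are the most negative for every gene, and Pmel reaches 0.02 without 1.5 h replicate 3.

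The 1.5 h libraries disagreed with each other, and the size of the difference followed them. In 1.5 h replicates 2 and 3 all 10 genes were above their own mean over the 6 libraries, and in 1.5 h replicate 1, 9 of 10 were below it. At 9.0 h, 9, 9 and 10 genes were below their mean in replicates 1 to 3. The libraries where all 10 genes were high, 1.5 h replicates 2 and 3, were also the shallowest, with 12640000 and 12960000 reads. The others, 1.5 h replicate 1 among them, had 24030000 to 31750000 reads. The part of depth in the difference between the times was not tested. Averaged over the 10 genes, the log2 deviation was −0.144, −0.088 and −0.287 in the 9.0 h libraries, against −0.145, 0.410 and 0.254 at 1.5 h, so 1.5 h replicate 1 stood at the level of 9.0 h replicate 1. The highest library was 1.5 h replicate 2 for 9 genes and 1.5 h replicate 3 for Pmel, while the lowest was 9.0 h replicate 3 for 6, 9.0 h replicate 1 for 2 and 1.5 h replicate 1 for 2.

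Without 1.5 h replicate 1 the median log2 fold change was −0.54, all 10 genes were lower at 9.0 h with no overlap (19.4% of all tested genes were), and 7 passed with limma. They were Tyr, Tyrp1, Slc45a2, Oca2, Mlana, Gpr143 and Slc24a5, with adjusted p between 0.00153 and 0.0443, while Dct, Pmel and Mitf had 0.115, 0.287 and 0.242. In that fit 9.23% of all tested genes were called, 4.27% as lower, so many more genes passed than with all 6 libraries. For a typical gene that fit took the spread wholly from the trend across genes. Its prior degrees of freedom were infinite, against 6.54 with all 6 libraries. Without 1.5 h replicate 2 or 3 the medians were −0.23 and −0.28 and 0 of the 10 passed, where 0.452% and 0.0964% of all genes did. With estimated library weights 8 of 10 passed (all but Pmel and Mitf, all lower), where 16.6% of all genes did and 6.12% passed as lower. The weight of 1.5 h replicate 3, the library with Y-linked RNA, was 5.52 there, against 0.279 and 0.367 for 1.5 h replicates 1 and 2 and 1.05 to 1.36 for the 9.0 h libraries, and the estimation of the weights stopped before reaching its tolerance.

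**Figure D3:**
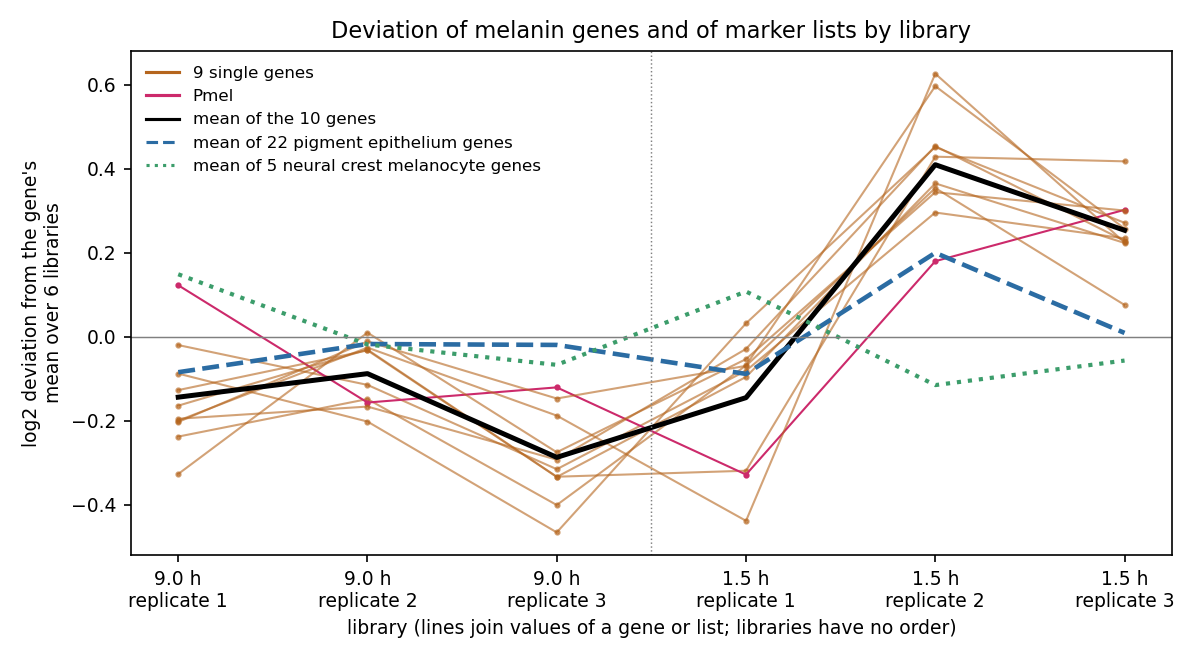
Log2 deviation of each gene from its mean over the 6 libraries (thin lines; Pmel in pink), with the mean of the 10 genes (black), of 22 pigment epithelium genes (blue, dashed) and of 5 neural crest melanocyte genes (green, dotted); 9.0 h libraries are on the left. The 10 genes are all above 0 in 1.5 h replicates 2 and 3. In 1.5 h replicate 1 they average −0.145 and range from −0.438 to 0.032.

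Other genes of the pigment epithelium differed among themselves in direction. Of 22 tested genes of a list that leaves out melanin genes, 12 were below 0, 0 were called, and the median log2 fold change was −0.07. At an unadjusted p of 0.05, 2 passed, against 11.1% of all tested genes, and both were lower at 9.0 h. They were Slc6a20a, an amino acid transporter (−0.60, larger than any of the 10), and Trpm3, a cation channel (−0.47), with limma adjusted p = 0.164 and 0.250. With no overlap between the times, 3 were lower (these and Rgr) and 0 higher, where 8.41% and 9.78% of all tested genes were. Serpinf1, which encodes the secreted factor PEDF, had a log2 fold change of 0.31 (limma adjusted p = 0.618). Slc6a20a, Trpm3 and Serpinf1 were chosen after their values were seen. The summed level of the list was 1642 to 1822 RPKM at 9.0 h, against 1538 to 2235 RPKM at 1.5 h, highest in 1.5 h replicate 2. Best1, a chloride channel of this epithelium, was at 0.359 to 0.652 RPKM and below the filter. The most abundant genes of the list were Ttr, a thyroxine and retinol carrier (log2 fold change 0.12), and Rgr, a retinal-binding opsin (−0.39), with limma adjusted p = 0.886 and 0.456.

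Average log2 deviation of the pigment epithelium list was −0.084, −0.017 and −0.019 at 9.0 h, against −0.088, 0.200 and 0.009 at 1.5 h. Subtracting it from that of the 10 genes left −0.059, −0.071 and −0.268 at 9.0 h, against −0.057, 0.210 and 0.245 at 1.5 h. Whether the list average measures the amount of this tissue was not tested. After such scaling, chosen after the values were seen, all 10 genes were below 0 with a median of −0.26, none passed with limma (0.215% of all genes did), and the median of all tested genes was 0.08. In 1.5 h replicate 2 both lists thus averaged well above 0, and in 1.5 h replicate 3 only the 10 genes did.

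Markers of neural crest melanocytes were split in direction. Of 5 tested genes 2 were below 0, 0 were called and 0 passed at an unadjusted p of 0.05, the median was 0.04, and the summed level was 34.9 to 41.1 RPKM at 9.0 h, against 37.5 to 42.8 RPKM at 1.5 h. Ednrb, the endothelin B receptor, had a log2 fold change of −0.15 and Sox10, a neural crest transcription factor, −0.07 (limma adjusted p = 0.856 and 0.887), and both are also expressed in glia. Pax3 was at 0.214 to 0.436 RPKM and below the filter. Schwann and myelin genes had 0 of 6 called, and 0 at an unadjusted p of 0.05, with a median of 0.08 that was −0.60 without 1.5 h replicate 1, and their sum swung between 86.7 and 215.2 RPKM at 9.0 h and between 63.3 and 234.2 RPKM at 1.5 h. Pmp22, a myelin gene and the most abundant of them, had a log2 fold change of 0.07 (limma adjusted p = 0.921). Endothelial genes had 0 of 10 called and 1, Plvap, higher at an unadjusted p of 0.05, with a median of −0.01. Plvap, of fenestrated vessels, and Kdr, a VEGF receptor, had 0.46 and 0.04 (limma adjusted p = 0.332 and 0.951). The part of these cell types in the difference of the 10 genes was not tested.

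Genes that build and move melanosomes, many of which serve lysosomes of all cells as well, were also split in direction. Of 37 tested, 17 were below 0 and 0 were called, and the median was 0.05. At an unadjusted p of 0.05, 5 passed, against 11.1% of all tested genes, and 4 of these 5 were higher at 9.0 h. The most abundant were Gpnmb, a glycoprotein related to Pmel (log2 fold change 0.01, limma adjusted p = 0.986), and Cd63, a tetraspanin that helps to sort Pmel (0.34, limma adjusted p = 0.497). With no overlap between the times, 7 were lower and 3 higher at 9.0 h, against 8.41% and 9.78% of all tested genes.

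The 3 higher genes, named after their values were seen, all encode subunits of BLOC-1, a complex that sorts cargo to melanosomes and related organelles. Bloc1s2 had 5.73, 9.16 and 9.34 RPKM at 9.0 h, against 4.87, 4.46 and 4.10 RPKM at 1.5 h, the largest log2 fold change of the list at 0.81 ± 0.20 SE (limma adjusted p = 0.164). Bloc1s1 and Bloc1s3 had log2 fold changes of 0.36 and 0.38 (limma adjusted p = 0.379 and 0.449). Dtnbp1, Snapin, Muted, Cno and Pldn, which also encode BLOC-1 subunits, overlapped between the times. Their log2 fold changes were 0.14, 0.10, 0.09, 0.05 and −0.007. Hps6, of another sorting complex, was the fourth higher gene at an unadjusted p of 0.05, with 0.45 (limma adjusted p = 0.418). The lower gene among the 5 was Mlph. Among the 7 lower genes, named in the same way, were the 3 parts of the machine that ties melanosomes to actin in melanocytes. The others were Vps41, Hps5, Sytl2 and Atp7a, with log2 fold changes of −0.24, −0.19, −0.42 and −0.31.

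Rab27a, the small GTPase on the melanosome, had 13.7, 12.6 and 12.2 RPKM at 9.0 h, against 20.6, 13.9 and 14.0 RPKM at 1.5 h. Mlph, melanophilin, its adaptor, had 10.5, 8.43 and 9.68 RPKM at 9.0 h, against 12.1, 12.1 and 11.5 RPKM at 1.5 h. Myo5a, the myosin motor, had 10.4, 9.54 and 8.82 RPKM at 9.0 h, against 12.1, 10.6 and 11.3 RPKM at 1.5 h. Rab27a and Myo5a were highest in 1.5 h replicate 1, where the 10 melanin genes averaged a log2 deviation of −0.145. Mlph was about equally high in 1.5 h replicates 1 and 2. All 3 were picked for having no overlap, so standing above every 9.0 h library at 1.5 h follows from that choice. Their log2 fold changes of −0.31, −0.32 and −0.24 had limma adjusted p between 0.433 and 0.564. Myrip and Myo7a, the adaptor and motor used with Rab27a in the pigment epithelium, overlapped between the times, with −0.13 and −0.04 (limma adjusted p = 0.803 and 0.947).

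Regulators of Mitf and receptors of pigment cells had 9 of 17 tested genes below 0, 0 called, and a median of −0.03. The 1 gene at an unadjusted p of 0.05 was Mgrn1, a ubiquitin ligase of the agouti pathway named after its value was seen, which was higher (0.34, limma adjusted p = 0.447). The transcription factors Pax6 and Otx2 were the most abundant of them and are also active in retinal neurons. They had log2 fold changes of −0.16 each (limma adjusted p = 0.790 and 0.760). Their highest library was again 1.5 h replicate 2, with 81.0 and 71.6 RPKM.

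**Figure D4:**
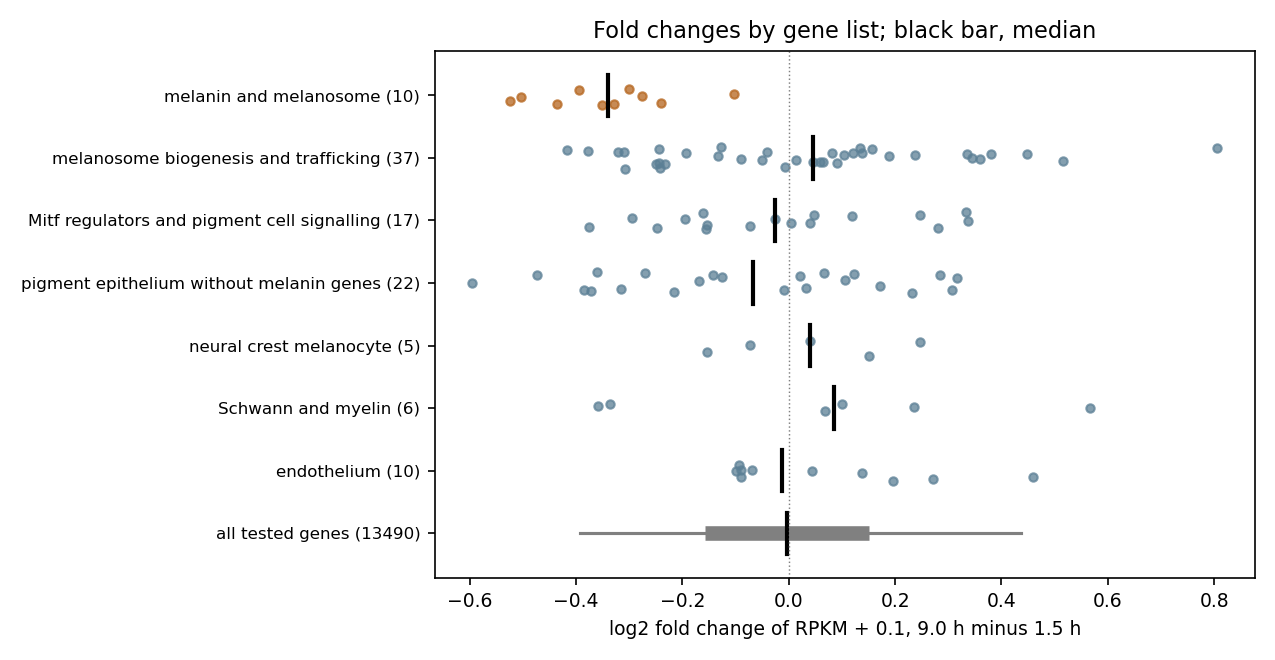
Log2 fold changes of RPKM + 0.1 (9.0 h minus 1.5 h) of the tested genes of each list (points, jittered vertically; number of genes in brackets) with the median (black bar), and for all 13490 tested genes the range from the 5th to the 95th percentile (thin line) and from the 25th to the 75th (thick line). The 10 melanin genes lie between −0.52 and −0.10, and the medians of the other lists lie between −0.07 and 0.08.

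By pattern over the 6 libraries, the tested genes most like the mean of the 10, of 12010 compared, were Trove2, E130203B14Rik, 1810074P20Rik, Ncald and Mtmr10. Their root mean square differences from it were 0.022 to 0.045 on the log2 scale, against a median of 0.296 over the genes compared. None was called, with limma adjusted p between 0.488 and 0.637. Ncald, a neuronal calcium sensor, had 17.98 ± 1.32 RPKM at 9.0 h and 22.88 ± 4.26 RPKM at 1.5 h (SD, n = 3 each).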

How the data were processed

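RNA sequencing of whole-eye poly(A) RNA gave 1 table per library, deposited by the authors in RPKM (reads scaled to gene model length and to library size). The unit was read from the values, since the headers name only the sample. Per the submitters' processing notes, GSNAP, HTSeq and mouse build mm9 were used. The sources used here give no version, annotation or strand setting, and do not say how ambiguous reads were counted.

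The 10 genes and the marker lists were chosen with earlier results of these data known. The test, 9.0 h minus 1.5 h, was limma 3.58.1 in R 4.3.3 (trend and robust eBayes, two-sided) on log2(RPKM + 0.1), over the 13490 genes that reached 1 RPKM in at least 3 libraries, with Benjamini-Hochberg adjustment. Fold changes on this scale understate low genes. The fit and the depth estimate were checked on simulated data. Depth came from low values of genes with 1 GENCODE M21 transcript, of which 74.1% to 76.6% lay within 0.1 read of a whole number. Copies were sought with minimap2 2.31: at 95% identity over 200 bases, the full-length transcripts of Tyrp1 matched a pseudogene over 215 bases, and an intron-retaining transcript of Dct held a repeat found in 9 other genes. Besides the 10 genes, the 2 most abundant members of each list and the 5 genes of most similar pattern are named, and others are said to be chosen after their values were seen. Not every gene that this rule gives is reported here. Alternatives were other pseudocounts, filters and scalings, a replicate block, library weights, and leaving out each library.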

Additional observations from a re-analysis of the deposited data

Results flagged for a closer look

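In 1.5 h replicate 3, a pool labelled female, the Y-linked genes Ddx3y, Uty, Kdm5d and Eif2s3y summed to 1.59 RPKM. Each of the 4 had a listed value of 0 elsewhere. The female marker Xist stood at 19.74 RPKM in 1.5 h replicate 3, against 13.35 to 39.26 RPKM in the others. With that library left out, the median log2 fold change of the 10 pigment genes was −0.28 and 9 of 10 were below 0.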

How the results depend on the processing

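In every setting but one all 10 genes were below 0; without 1.5 h replicate 3, 9 were, with Pmel at 0.0226 (−0.293 to 0.0226 when 1 library was left out). The median of the 10 ranged from −0.54 to −0.228 when 1 library was left out (0 to 7 genes called) and from −0.421 to −0.26 in the other settings. Library quality weights called 8 of the 10, and 2244 genes in all, and gave an endothelial median of −0.161 and a Schwann and myelin median of −0.7, which was −0.6 to 0.358 without 1 library. Among all genes 30 were called, against 15 with median-of-ratios scaling, 15 with quantile normalization and 141 with the replicate block, and 2 to 1245 without 1 library (4, 10 and 2 without 9.0 h replicates 1 to 3, and 1245, 61 and 13 without 1.5 h replicates 1 to 3). The median of melanosome biogenesis genes was 0.127 when scaled to pigment epithelium genes, and −0.0224 to 0.058 without 1 library (0.00726 without 9.0 h replicate 1, −0.0224 and −0.00146 without replicates 1 and 3 of 1.5 h). That of Mitf regulators was 0.0541 when scaled to pigment epithelium genes, and −0.104 to 0.0128 without 1 library. The causes were not tested. Same-numbered libraries deviated from their time's mean with correlations across genes of 0.347, 0.484 and −0.215. Replicates 1 and 2 of 9.0 h correlated best with the same number, and 9.0 h replicate 3 with 1.5 h replicate 1. These values do not settle whether the numbers pair the pools. The replicate block called 0 of the 10 genes, with a lowest limma adjusted p of 0.138.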
